A study of Homo sapiens with 8 samples.

Results

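Krüppel-like factors (KLFs) were described in CCRF-CEM cells, a widely used line grown from a human T-cell leukaemia of the acute lymphoblastic kind (T-ALL). The genes were 8 family members chosen by symbol, with earlier results of these arrays known: KLF2, KLF3, KLF4, KLF6, KLF7, KLF10, KLF11 and KLF13. A probe set was taken for a gene by its platform symbol, and would have been selected by the highest mean over all arrays where a gene had several. In the event 7 of the 8 genes had a named probe set, each had 1, and these 7 were among 17687 named genes and 21448 probe sets on each array. KLF13 had no probe set under its symbol in the annotation used here and was not analysed.

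The tested cells received 1 µM OICR-9429, a small molecule that binds WDR5, for 1 h and then spent 1 h in a type I collagen gel of 1.7 mg/mL. The comparison cells had the same line, gel and time in the gel, and received no OICR-9429; the labels name no solvent for them. There were 4 arrays with OICR-9429 and 4 untreated, numbered 1 to 4 in each group. Each probe set has a log2 expression value, so a difference of 1 is a factor of 2 in signal. Signal over background and scan batch were not known. All 10 T-cell markers examined were measured and had mean levels of 6.08 to 11.83, with CD3E, CD3D, CD3G and LCK above 10. Markers of other cells were not all dim: the B-cell gene CD79A had a mean of 9.42 and the endothelial gene PECAM1 8.62, while LYZ (3.79), MS4A1 (3.73) and KDR (3.27) lay near the level of olfactory receptor probe sets.

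KLFs are transcription factors that share C-terminal zinc fingers and bind GC-rich and CACCC-type DNA. Several are induced quickly by growth factor, stress or shear signals, and others act as repressors through co-repressor proteins. In T cells KLF2 is known for keeping cells quiescent and for driving genes of lymphocyte homing, and KLF4 is known as a brake on proliferation that is often silenced in T-ALL. The comparison asks which transcripts differ if WDR5 is inhibited before the cells meet a collagen matrix. The KLF genes were followed through that comparison and across the replicate numbers.

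The 250 bases before the start of KLF2, KLF4 and KLF6 are shown because these 3 genes all had their highest mean at replicate number 4 and passed the test there, as described further on. The sequences are RefSeq's, of build GRCh38.p14. KLF2 lies on the plus strand (chr19:16324576-16324825), KLF4 on the minus strand (chr9:107489770-107490019) and KLF6 on the minus strand (chr10:3785210-3785459). Each is written 5′ to 3′ towards the gene. Capitals mark every match on either strand to the motifs searched. The GC box was searched as GGGCGG. An E box was taken as the letters CACGTG. For a cyclic AMP response element the search used TGACGTCA, and CACCC boxes, MEF2 sites and SRF CArG boxes were looked for too.

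KLF2: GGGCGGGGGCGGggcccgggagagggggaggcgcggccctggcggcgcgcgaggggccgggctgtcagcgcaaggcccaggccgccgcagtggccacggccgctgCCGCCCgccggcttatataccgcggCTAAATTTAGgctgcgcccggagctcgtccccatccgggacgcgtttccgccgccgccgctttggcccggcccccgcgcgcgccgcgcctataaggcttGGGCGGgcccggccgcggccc

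KLF4: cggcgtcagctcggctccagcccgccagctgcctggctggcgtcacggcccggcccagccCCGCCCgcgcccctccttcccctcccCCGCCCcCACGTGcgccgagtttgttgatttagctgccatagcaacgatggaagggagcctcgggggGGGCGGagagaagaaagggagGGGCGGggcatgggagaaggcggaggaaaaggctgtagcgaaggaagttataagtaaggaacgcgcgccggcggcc

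KLF6: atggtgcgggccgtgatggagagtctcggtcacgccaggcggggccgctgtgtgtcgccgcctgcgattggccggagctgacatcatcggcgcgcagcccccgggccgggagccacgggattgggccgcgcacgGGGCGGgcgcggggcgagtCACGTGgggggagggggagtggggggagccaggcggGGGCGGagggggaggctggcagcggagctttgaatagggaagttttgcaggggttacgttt

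KLF2 had 4 GC boxes, 2 of them side by side at its far end, and 1 MEF2 site, CTAAATTTAG, 120 to 111 bases before the start. Of 35116 promoters of the same length, 0.515% held a MEF2 site. KLF4 had 4 GC boxes and 1 E box, and KLF6 had 2 GC boxes and 1 E box. A GC box was in 42.6% of all promoters and an E box in 6.35%. CACCC boxes (54.7% of all promoters), cyclic AMP response elements (1.65%) and SRF CArG boxes (1.16%) had no match in these 3 windows. A cyclic AMP response element was matched at 1 of 2 KLF11 starts, where it shares its last bases with a CACCC box, and a CArG box at 1 of 4 KLF7 starts. CACCC boxes were also matched before KLF7 and KLF13. KLF3 and KLF10 had no sequence among the promoters used and were not searched. A match is a description of letters and not a site shown to be used.

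KLF4 had the largest treatment difference of the 7 KLF genes, and it did not pass the test. Its values with OICR-9429 were 4.31, 3.88, 4.25 and 4.82 for numbers 1 to 4, against 4.59, 4.82, 4.89 and 5.41 in untreated cells. The treated array was the lower one in each of the 4 numbers, while the groups overlapped, since treated number 4 was above untreated number 1 and equal to untreated number 2. Within numbers the differences were -0.28, -0.94, -0.64 and -0.59.

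KLF4 averaged 4.32 ± 0.39 with OICR-9429 and 4.93 ± 0.35 untreated (SD, n = 4 each). The log2 difference was -0.61 ± 0.24 (SE), a signal ratio of 0.654, with a 95% interval of -1.16 to -0.07 and adjusted p = 1 (limma, unadjusted p = 0.0318). With the replicate number as a block the SE was 0.12, the interval -0.90 to -0.33 and the adjusted p = 0.841 (limma, unadjusted p = 0.00109). KLF4 was singled out because earlier results had shown it, so these values are a description. Over all probe sets 0 were called without the block (0%) and 0 with it (0%) at an adjusted p under 0.05. At an unadjusted p under 0.05 there were 105 (0.49%) without and 1191 (5.55%) with the block, and 1 of the 7 KLF genes, KLF4, was among them either way.

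Of the 21448 probe sets, 8 had a difference as low as KLF4's and 16 one as large in size, itself included. An unadjusted p as small was found in 55 without the block and in 12 with it. Treatment held 48.1% of KLF4's variance over the 8 arrays, replicate number 44.8% and the remainder 7.03%. These are shares of the sum of squares, and number has more levels than treatment, so the shares of number and treatment are not directly comparable. Over all probe sets the median share held by treatment was 2.51%. A treated value below the untreated one in all 4 numbers was found in 1 of 7 KLF genes and in 1420 probe sets (6.62%).

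KLF4's probe set was dim. Its mean over all arrays was above 24.8% of all probe sets and above 91.7% of 348 olfactory receptor probe sets, a family used mainly in the nasal epithelium, although some members are reported in blood cells and OR2W3 had a mean of 6.51 here. From the 5th to the 95th percentile, mean levels of the olfactory receptor probe sets ran from 2.87 to 4.82. Of the KLF4 arrays, 3 treated and 1 untreated were below that upper value, and treated number 4 and untreated number 2 lay at it. These places on the signal scale are not amounts of transcript, because probe sets respond differently. Treatment differences of the olfactory receptor probe sets ran from -0.42 to 0.45, with a median of 0.02, and 0 of 348 were as low as KLF4's. Most of them were dimmer than KLF4 (median level 3.39 against 4.62), so this is not the spread at KLF4's level. Among 3041 probe sets with a mean within 0.5 of KLF4's, 5 were as low, itself included, and the median was -0.04. KLF4 was singled out for its difference, so both counts are a description and not a test. Whether the KLF4 probe set measured its transcript at this level was not tested.

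**Figure D1:**
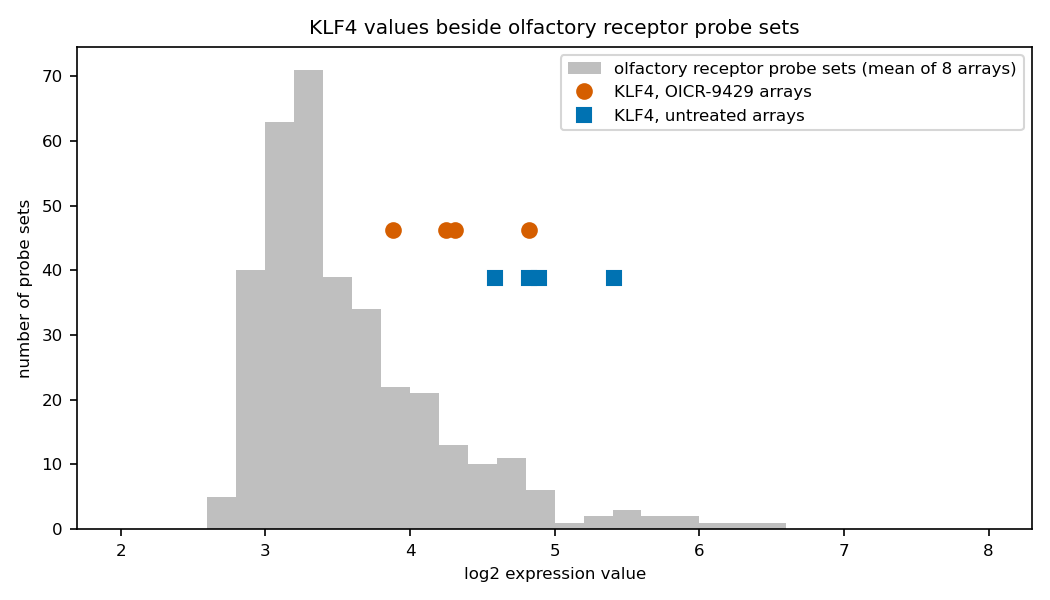
Histogram of mean log2 expression values of 348 olfactory receptor probe sets (x axis: log2 expression value; y axis: number of probe sets), with KLF4's value on each OICR-9429 array (circles) and each untreated array (squares); the height of the KLF4 points has no meaning. KLF4 lay at 3.88 to 4.82 with OICR-9429 and 4.59 to 5.41 untreated, in the upper tail of the olfactory receptor values.

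The other 6 KLF genes showed smaller differences that changed sign between numbers. KLF2, the homing and quiescence factor, had 7.36, 6.68, 7.13 and 8.79 with OICR-9429, against 7.38, 7.13, 7.60 and 8.51 untreated. Its treated array was lower in numbers 1 to 3 and higher in number 4, and the groups overlapped over most of their range. The mean difference was -0.17 ± 0.45 (SE), adjusted p = 1 (limma), and its 95% interval of -1.18 to 0.85 takes in a change of 2-fold. With the replicate block that interval was -0.50 to 0.17. Without the block, KLF2 turned to 0.11 without treated number 2 and to 0.12 without untreated number 4, which leaves a partner unmatched. In block fits without 1 number KLF2 stayed negative, at -0.313 to -0.063.

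KLF6, an injury- and mitogen-induced factor, had 8.08, 8.97, 9.32 and 9.71 with OICR-9429, against 8.29, 8.79, 9.30 and 9.75 untreated. The values of a number lay close together whichever the treatment. KLF10, first known as a gene induced early by TGF-beta, had 8.34, 8.19, 9.30 and 9.00 with OICR-9429, against 8.27, 8.36, 9.33 and 8.90 untreated. Mean differences were -0.01 for both genes, with 95% intervals in the replicate block of -0.25 to 0.23 for KLF6 and -0.24 to 0.22 for KLF10.

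KLF7, a factor known from neuronal development, had 7.93, 8.61, 8.33 and 7.38 with OICR-9429, against 8.31, 8.48, 8.37 and 7.61 untreated, a mean difference of -0.13 ± 0.29 (SE). KLF11, a TGF-beta-inducible repressor, had 5.64, 5.52, 5.87 and 5.60 with OICR-9429, against 5.38, 5.77, 5.79 and 6.26 untreated, a mean difference of -0.14 ± 0.20 (SE). KLF3, a repressor that recruits CtBP, had 5.80, 5.69, 5.33 and 5.40 with OICR-9429, against 5.27, 5.54, 5.37 and 5.85 untreated, a mean difference of 0.05 ± 0.19 (SE). In each of the 3 genes the groups overlapped. For KLF3 the numbers went opposite ways, at 0.53 in number 1 and -0.45 in number 4, and for KLF11 at 0.26 and -0.66. The remaining variance, held by neither number nor treatment, was 71.0% for KLF3 and 49.4% for KLF11. The 7 KLF genes had a median difference of -0.13 (1 above 0 and 6 below), against 0.0050 over all probe sets, and 0 passed in either direction. With arrays centred on their median 3 were above 0 and 4 below.

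**Figure D2:**
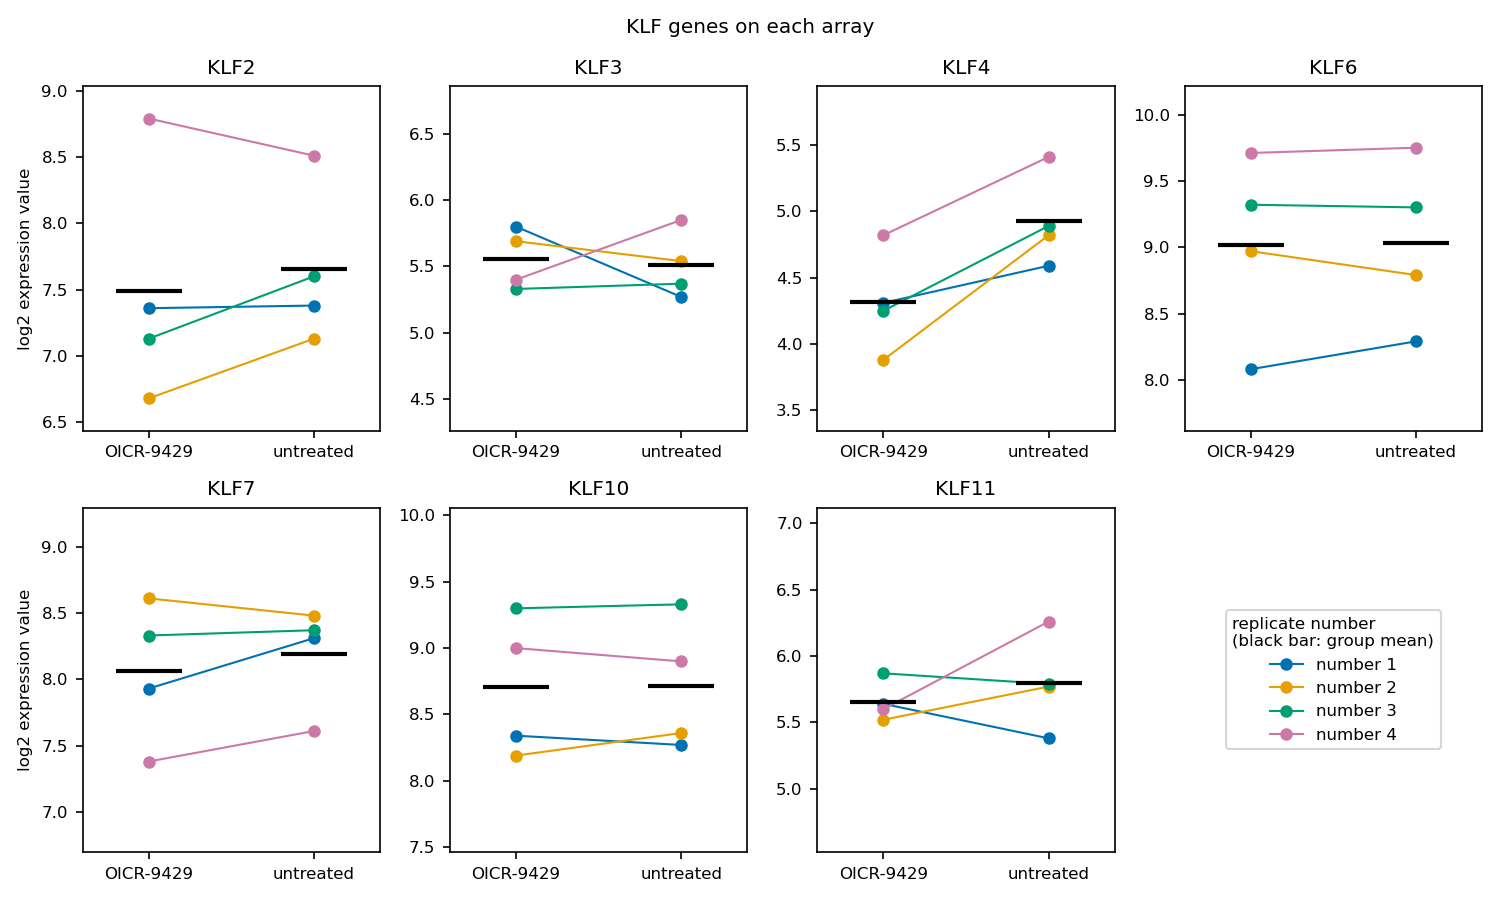
Log2 expression value (y axis) of 7 KLF genes on each array, OICR-9429 at left and untreated at right (x axis); lines join the arrays of a replicate number, black bars are group means, and every panel spans the same number of log2 units. KLF4 was lower with OICR-9429 in all 4 numbers. In all 7 genes, KLF4 included, the range of number means was wider than the treatment difference in size. For KLF4 the range was 0.765 and the difference -0.61.

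**Figure D3:**
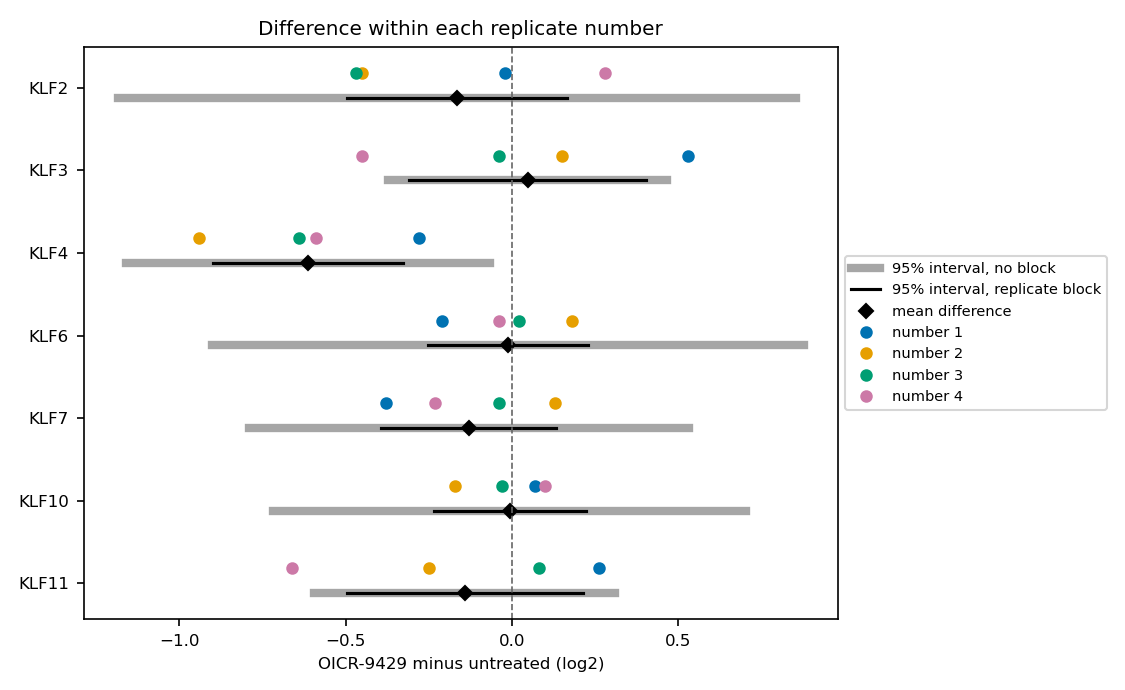
OICR-9429 minus untreated (x axis, log2) for 7 KLF genes (rows): circles are the differences within numbers 1 to 4, diamonds their mean, grey bars the 95% interval without a block and black lines that with the replicate block (limma, no adjustment over probe sets). KLF4's mean was -0.61, and the other means lay between -0.17 and 0.05.

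KLF2, KLF6, KLF7 and KLF10 had most of their variance between replicate numbers. Number held 93.1% of the variance of KLF2, 98.5% of KLF6, 92.0% of KLF7 and 98.6% of KLF10, against a median of 81.3% over all probe sets. When limma tested for any difference among the numbers, 5 of 7 KLF genes passed an adjusted p of 0.05, as did 10791 probe sets (50.3%). The test compares 4 numbers with 2 arrays each, and since same-numbered arrays pair, it measures the spread within a number and not that between separate cultures. KLF3, with number means within 0.28 of each other, and KLF11, within 0.42, did not pass (limma, adjusted p = 0.641 and 0.357).

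KLF2 had its widest gap at number 4. Its number means were 7.37, 6.91, 7.37 and 8.65 for numbers 1 to 4, a range of 1.75 or 3.35-fold (limma, adjusted p = 0.00129). Number 4 was higher than the mean of the others by 1.44 ± 0.17 (SE; limma, adjusted p = 0.000265), and number 2 differed by -0.89 ± 0.17 (adjusted p = 0.00657). Both arrays of number 4, at 8.79 with OICR-9429 and 8.51 untreated, were above the other 6, which had 6.68 to 7.60. Without number 4 the range was 0.47 and KLF2 no longer passed (limma, adjusted p = 0.127), nor did number 2 against the others (-0.46, adjusted p = 0.065). Among 2951 probe sets within 0.5 of KLF2's level, the median difference at number 4 was -0.11, opposite to KLF2.

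KLF6 was lowest at number 1 and highest at number 4. Its number means were 8.19, 8.88, 9.31 and 9.73, a range of 1.55 or 2.92-fold (limma, adjusted p = 0.000601). Number 1 differed from the others by -1.12 ± 0.12 (SE; limma, adjusted p = 0.0020) and number 4 by 0.94 ± 0.12 (adjusted p = 0.000431). Treated and untreated arrays of a number never differed by more than 0.21 in size. Same-level probe sets had a median of 0.17 at number 1 and -0.34 at number 4, opposite to KLF6 in both. Leaving out any 1 number left KLF6 past the test, with a range of 0.85 without number 1 (limma, adjusted p = 0.0105).

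KLF10 separated numbers 3 and 4 from numbers 1 and 2. Number means were 8.31, 8.28, 9.32 and 8.95, a range of 1.04 or 2.06-fold (limma, adjusted p = 0.00139), and the 4 arrays of numbers 3 and 4 were all above the other 4. Number 3 was higher than the others by 0.81 ± 0.11 (SE; limma, adjusted p = 0.0204). Number 1 differed by -0.54 (adjusted p = 0.0184), number 2 by -0.58 (adjusted p = 0.00813) and number 4 by 0.32 (adjusted p = 0.0465). Without number 3 the first 2 of these were -0.31 and -0.35 and did not pass (limma, adjusted p = 0.162 and 0.103), and the range was 0.68 (adjusted p = 0.0165). Without number 2, number 1 differed by -0.83 (adjusted p = 0.00612). Without number 1 or number 2, number 4 differed by 0.16 and 0.14 and did not pass (limma, adjusted p = 0.349 and 0.355), while without number 3 it differed by 0.66 and after quantile normalization by 0.59, and both passed (limma, adjusted p = 0.00675 and 0.00435). Same-level probe sets had medians of 0.17 at number 1, 0.07 at number 2, 0.09 at number 3 and -0.29 at number 4.

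KLF7 went the other way at number 4. Its number means were 8.12, 8.55, 8.35 and 7.50 (limma, adjusted p = 0.00431), with number 4 lower than the others by a difference of -0.84 ± 0.13 (SE; limma, adjusted p = 0.00112) and number 2 higher by 0.56 ± 0.13 (adjusted p = 0.0168). The 2 arrays of number 4 were the lowest of the 8, at 7.38 with OICR-9429 and 7.61 untreated. Same-level probe sets also had a median below 0 there, at -0.21. Without number 4, KLF7 had a range of 0.43 (limma, adjusted p = 0.227) and number 2 differed by 0.31 (adjusted p = 0.189), and neither passed.

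KLF4 had number means of 4.45, 4.35, 4.57 and 5.12 (limma, adjusted p = 0.0236), with number 4 higher by 0.66 ± 0.14 (SE; adjusted p = 0.0055). Same-level probe sets shifted that way too, by a median of 0.20, and olfactory receptor probe sets by a median of 0.13. Without number 4 the range was 0.22 and did not pass (limma, adjusted p = 0.656). With treatment left out of the model neither the range (adjusted p = 0.237) nor number 4 (adjusted p = 0.0707, limma) passed.

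Counted by number, 4 of 7 KLF genes were higher at number 4 (KLF2, KLF4, KLF6 and KLF10), against 26.3% of all probe sets, and 1 was lower (KLF7), against 25.5%. At number 1, 2 were lower (KLF6 and KLF10), against 6.14% of probe sets. At number 2, 2 were lower (KLF2 and KLF10), against 11.6%, and 1 was higher (KLF7), against 15.4%. At number 3, 1 was higher (KLF10), against 1.18%. Counts over so few genes, chosen with these arrays known, are not set apart from those shares by any test. Differences at number 4 also went with signal level. Same-level medians there were 0.20 to 0.23 around KLF3, KLF4 and KLF11, and -0.34 to -0.11 around KLF2, KLF6, KLF7 and KLF10. The shares over all probe sets, here and for the lists below, take no account of level.

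**Figure D4:**
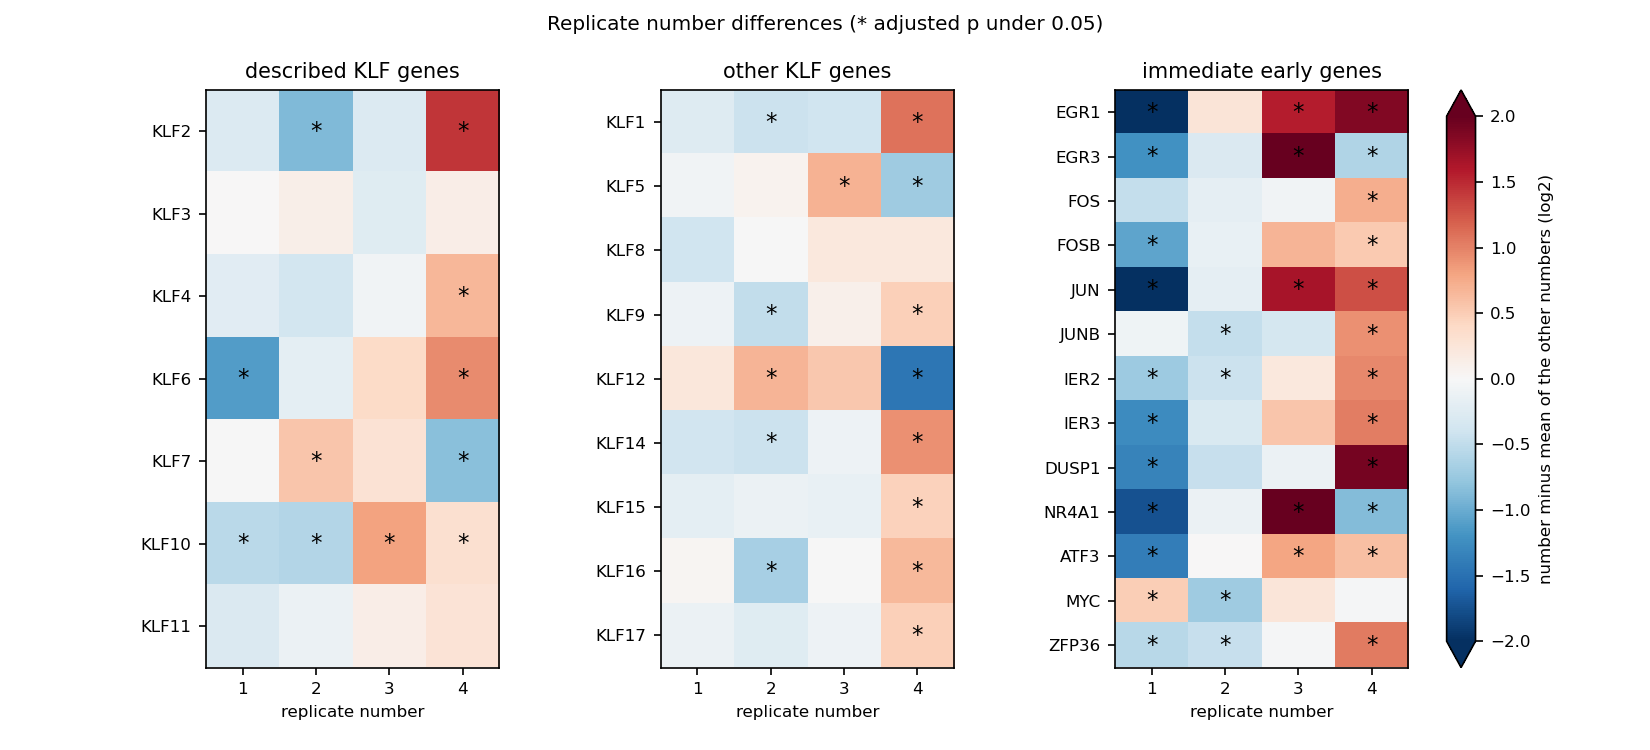
Each replicate number minus the mean of the other numbers (colour, log2; values beyond 2 take the end colour) for 7 described KLF genes, 9 other KLF genes and 13 immediate early genes (rows) at numbers 1 to 4 (columns); asterisks mark an adjusted p under 0.05 (limma). KLF2 and KLF6 were highest at number 4, KLF10 at number 3, and KLF7 was lowest at number 4.

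Patterns over the 8 arrays were compared by the root mean square difference of centred values, among 17687 genes. For KLF6 the nearest were PLEKHO2 (0.111), LBH (0.114) and IER3 (0.142), where KLF6's own spread about its mean was 0.575. For KLF2, with a spread of 0.674, they were CDT1 (0.112), RTL8B (0.113) and TKFC (0.136). For KLF10 they were DHCR7 (0.121), HLA-DMA (0.133) and HOXC10 (0.137), for KLF7 CCNL2 (0.0807), ZNF714 (0.0893) and NPC1 (0.0931), and for KLF4 NR5A1, ANGPTL8 and SCUBE1 (0.141 to 0.144). Genes were taken for this when their range over the arrays reached 1, and KLF10 (1.14) lay just inside that limit and KLF11 (0.88) just outside. The 8 arrays form 4 pairs, so such likeness rests on few independent points.

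IER3, among the genes nearest to KLF6, belongs to a list of 14 immediate early genes, which respond to stimuli before new protein is made; 13 were measured. At number 1, 10 were lower and 1 higher, against 6.14% and 10.6% of all probe sets, with a median of -1.22 against -0.03. At number 4, 10 were higher and 2 lower, against 26.3% and 25.5%, with a median of 0.92 against 0.08. Of the 13, 6 were lowest at number 1 and highest at number 4, the pattern of KLF6 and also, without a passing test, of KLF11. That pattern was found in 18.5% of all probe sets. The list was chosen with these arrays known, and its counts are not set apart from those shares by any test. EGR1, a zinc finger factor, had number means of 6.02, 8.98, 9.97 and 10.18. NR4A1, a nuclear receptor, was highest at number 3, as KLF10 was, with 6.87, 8.09, 10.24 and 7.53. Treatment differences of the list had a median of 0.06, with NR4A1 at 0.22 and ATF3 at 0.16, and 0 of 13 passed.

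The other KLF family genes differed at number 4 in both directions. Of 10 listed, 9 were measured, and at number 4, 6 were higher and 2 lower, against 26.3% and 25.5% of all probe sets. KLF12, a CtBP-dependent repressor, differed there by -1.44 (limma, adjusted p = 0.000251), with number means of 7.29, 7.64, 7.53 and 6.04. KLF5, a factor of epithelial proliferation, differed by -0.71 (adjusted p = 0.00155). KLF1, the erythroid KLF, differed by 1.09 (adjusted p = 0.000322), KLF14 by 0.91, KLF16 by 0.65, KLF9 by 0.48, KLF17 by 0.47 and KLF15 by 0.46. Most of the genes higher there were dim, with KLF1, KLF9, KLF14, KLF15 and KLF17 having mean levels under the median of all probe sets, 6.45. KLF16, also higher, was brighter at 7.54. Of the genes lower there KLF5 was dim too, at 5.75, and KLF12 was brighter, at 7.12. Of these 9 genes 2, KLF1 and KLF17, had all 4 treated arrays below their untreated partners, as did 6.62% of all probe sets. KLF1 had 6.21 ± 0.49 with OICR-9429 and 6.55 ± 0.62 untreated (SD, n = 4 each). KLF17 had 5.24 ± 0.29 with OICR-9429 and 5.38 ± 0.20 untreated (SD, n = 4 each). KLF8 had the largest positive difference, 0.33, and 0 of 9 passed between treatments (median -0.03).

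The related SP factors bind the same GC boxes. All 9 were measured and 0 differed between treatments (median -0.10), with SP4 at -0.25 and SP9 at -0.22. At number 4, SP5, SP6, SP8 and SP9 were higher and SP3 and SP4 lower, 4 and 2 of 9 against 26.3% and 25.5% of all probe sets. The higher ones were dim, with mean levels of 4.66 to 6.10, and SP3 and SP4 were brighter, at 11.15 and 8.12. Same-level probe sets around KLF4 (4.62) had a median of 0.20 at number 4 and those around KLF7 (8.13) -0.21. SP4 and SP5 had the widest ranges of number means, 1.27 and 1.04.

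Genes linked to KLF2 in T-cell homing gave 0 of 6 measured past the treatment test, with a median of -0.03. IL6R stood at 0.28, with all 4 treated arrays above their untreated partners, and IL7R at 0.14. The share of all probe sets higher in all 4 numbers was not counted. S1PR1, the receptor for exit from lymphoid organs, had 9.88 ± 0.20 with OICR-9429 and 10.00 ± 0.16 untreated (SD, n = 4 each). Its treated array was the lower one in all 4 numbers (-0.02, -0.13, -0.25 and -0.08), as in 6.62% of all probe sets. At number 4, where KLF2 was highest, 3 of the 6 were higher, S1PR4 (0.89), CCR7 (0.36) and ITGB7 (0.39), against 26.3% of all probe sets. S1PR1 (0.23), IL7R (0.22) and IL6R, which had its lowest mean there (-0.34), did not pass. IL7R was instead lower at number 1, by a difference of -1.12 ± 0.12 (SE; limma, adjusted p = 0.00171). Of the cell cycle genes linked to KLF4, 6 of 9 were measured and 0 passed between treatments (median 0.01). CDKN1A, the cell cycle inhibitor p21, stood at 0.13, and CDKN1C at -0.18. At number 4, CDKN1C (0.93), CDKN2D (0.80), CCNB1 (0.58) and CCND1 (0.39) were higher, 4 of 6 against 26.3% of all probe sets. CDKN1A (-0.12) and CDKN1B (0.23) did not pass there. The count takes no account of the direction in which each gene is linked to KLF4.

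Regulators of KLF genes did not pass between treatments either. In the list of ERK5, MEF2, SRF and FOXO genes 0 of 13 passed (median 0.03), with MAP3K2 at 0.14 and MEF2A at 0.14. MEF2A, a factor that binds sites like the one before KLF2, had number means of 9.01, 9.83, 9.33 and 8.32, lowest at number 4 where KLF2 was highest. MEF2C was lowest there too, with 7.98, 8.35, 8.19 and 7.89, and MEF2D was highest there, with 7.89, 8.05, 8.32 and 8.38, and neither passed at number 4 (limma, adjusted p = 0.133 and 0.074). MAPK7, which encodes ERK5, was higher there by 1.01 (limma, adjusted p = 0.000216), and MAP3K2, an upstream kinase, differed by -1.88. Of 8 TGF-beta pathway genes 0 passed (median 0.04), with TGFBR1 at 0.19 and SMAD3 at -0.15, while at number 4 SMAD7 was higher by 0.77 and SKIL differed by -1.43.

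Cofactors and ubiquitin ligases had no member past the treatment test. Of 9 co-repressors and co-activators 0 passed between treatments (median 0.04), with SIN3A at 0.09 and CREBBP at 0.085. Of 7 ubiquitin ligase genes with known KLF substrates 0 passed (median 0.12), with SIAH1 at 0.21 and BTRC at 0.16. At number 4, 5 of the 7 were lower, against 25.5% of all probe sets, WWP1 by a difference of -1.94 and SIAH1 by -1.52, and CREBBP and KAT2B differed by -1.55 and -1.46. The WDR5 core genes had 0 of 5 passing between treatments (median 0.07), with ASH2L at 0.12 and DPY30 at 0.10. KMT2A had the widest range of number means among them, 1.98.

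Markers of other cell types were counted at number 4, where 26.3% of all probe sets were higher and 25.5% lower. Among the 7 myeloid genes 4 passed as higher and 0 as lower (median 0.37), of 5 endothelial markers 1 was higher, of 3 erythroid markers 2 were higher and 1 lower, and of 4 B-cell markers 1 was higher and 1 lower, as were 1 and 1 of 5 fibroblast and epithelial markers. The mean of the 7 myeloid markers ran from 5.21 to 5.88 on treated arrays and from 5.25 to 5.98 on untreated arrays. Single myeloid markers had mean levels of 3.79 to 7.11, and same-level probe sets around KLF11 (5.73) had a median of 0.23 at number 4. Among T-cell markers 5 of 10 were higher and 2 lower at number 4 (median 0.35). The part of any of these in the KLF differences was not tested. In bulk RNA a change in the share of cells of a kind and a change in RNA per cell cannot be told apart.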

How the data were processed

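Per the submitters' processing notes, the deposited log2 values came from RMA and Transcriptome Analysis Console; versions and genome build were not named by the sources used here. The table holds 21448 probe sets on 8 arrays, with array medians of 6.38 to 6.46; with so few arrays, precision is limited by their number. Symbols came from the platform's annotation (17709 probe sets with 1 symbol, 3739 with none), and 0 symbols changed when looked up by Entrez ID in RefSeq (GRCh38.p14).

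Groups were compared with limma 3.58.1 (R 4.3.3; lmFit and eBayes, two-sided, Benjamini-Hochberg over all probe sets, threshold 0.05) on all 8 arrays without covariates. A second limma model, with number and treatment, tested replicate numbers, together and each against the mean of the others. Both were tested on simulated data. The titles call the arrays biological replicates, without saying whether these were separate cultures, so each p-value reflects only how far these samples spread, which may be technical.

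Deviations from group means correlated between same-numbered arrays at 0.696, 0.748, 0.566 and 0.865, above the limit of 0.1. The highest correlations with another number were lower, at 0.212, 0.216, 0.216 and -0.374. Those of numbers 1 to 3 also passed 0.1, so that limit alone does not show pairing. The numbers from the titles were taken to pair the samples, and a replicate block was run beside the comparison. Named genes in related lists were the 2 with the largest treatment difference and the 2 with the widest range of number means, and further list members and markers were named after their values were seen. All KLF genes, the 3 genes nearest in pattern and the other KLF genes were also named. Genes and lists were chosen with earlier results of these data known.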

Additional observations from a re-analysis of the deposited data

How the results depend on the processing

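The treatment comparison gave 0 probe sets past the adjusted threshold under each alternative run: the replicate block (smallest adjusted p 0.841), number as a random block (consensus correlation 0.733, smallest adjusted p 0.738), trend and robust variance, probe sets above the median level, quantile normalization, arrays centred on their median, and leaving out each array. Block fits without each number or with trend and robust variance, chosen after seeing the data, also gave 0. At an unadjusted p under 0.05 the count was 105, against 1191 with the replicate block, 1297 with the random block, 165 with trend and robust variance, 5 above the median level and 1166 with the block, trend and robust variance. It was 271 without treated number 4, and 942 to 1482 in block fits without 1 number. KLF4 stayed negative in all of these that measured it: -0.78 to -0.45 when 1 array was left out, and -0.72 to -0.50 with the block and 1 number left out.

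The other KLF differences changed sign when 1 array was left out of the fit without a block, which leaves its partner unmatched. Leaving out 1 array gave -0.598 to 0.120 for KLF2, -0.034 to 0.162 for KLF3, -0.260 to 0.301 for KLF6, -0.324 to 0.097 for KLF7, -0.205 to 0.198 for KLF10 and -0.282 to 0.011 for KLF11. With arrays centred, KLF6 was 0.013 and KLF10 0.018. Block fits without 1 number keep the pairs, and there KLF2 stayed negative at -0.313 to -0.063 and KLF7 at -0.217 to -0.047. The others changed sign there too: KLF3 was -0.113 and KLF6 0.053 without number 1, KLF10 0.047 without number 2 and KLF11 0.030 without number 4. The cause was not tested. The count of probe sets differing between numbers, 10791, ran from 2979 (without number 4) to 10394 when 1 number was left out. Probe sets higher at number 3 were 254, against 1694 with trend and robust variance and 1321 above the median level. Each member had 1 probe set, so the choice among several was not run. KLF3, KLF4 and KLF11 lie below the median level and have no value under that filter. The precision of dim probe sets is limited by unknown signal over background.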
